A study of Mus musculus with 20 samples.

Results

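The wild-type saline group holds 5 of the 20 sequenced hippocampus libraries and is the saline reference of the series. The libraries were chosen by label alone, as the wild-type animals given saline, so no measured value entered the choice. The animals were male C57BL/6J mice aged 12 weeks, and tissue was taken on day 7 after 1 intraperitoneal saline injection. The groups set beside it were wild-type mice given 3 mg/kg LPS (lipopolysaccharide, a bacterial wall component that triggers inflammation) and Fkbp5 knockout mice given saline, with 5 libraries each and the same sex, age and day. Fkbp5 encodes a co-chaperone of HSP90 that dampens glucocorticoid receptor signalling. The labels do not say whether libraries of a group came from separate animals, so p-values measure the spread between these libraries, which may be technical.

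The hippocampus is a layered part of the forebrain needed for forming memories. Its main output and relay cells are glutamatergic pyramidal neurons of the CA fields and granule neurons of the dentate gyrus, with GABAergic interneurons, astrocytes, oligodendrocytes, microglia and vessels among them. RNA from the whole tissue mixes all of these, so fewer cells of a type and less RNA per cell cannot be told apart here.

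Levels between genes are given as TPM, a transcript level that divides counts by exon length and scales each library to the same sum. Values of 1 gene across libraries are also given as CPM, counts relative to the library total scaled with TMM factors. Total counts ran from 18155379 to 20159616 per library. A gene without a count in any of the 5 libraries had a level of at most 0.0313 CPM (3 counts over the summed total, counting error only). Xist, the RNA of the inactive X chromosome, had 0 counts, and the Y-linked Ddx3y had 27.01 TPM, which matches the male label. Neuronal and glial markers described below were present, and the lymphocyte list summed to 0.762 TPM.

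The 5 libraries did not form 1 cluster. Replicates 1 and 2 stood apart from replicates 3 to 5 on the first principal component, which held 81.0% of the variance. Log2 CPM correlated at 0.993 to 0.995 among replicates 3 to 5, at 0.970 between replicates 1 and 2, and at 0.914 to 0.958 across the sets. Mitochondrially encoded genes took 5.68% and 4.92% of counts in replicates 1 and 2, and 9.82%, 10.3% and 11.4% in replicates 3, 4 and 5. Genes with a count numbered 25018 and 23796 in the first set and 21872, 21549 and 21284 in the second. The labels give no batch that matches this split, so values by library or by set are given for the main members, and other values are means over both sets. Among genes whose sets did not overlap, 94.5% were higher in replicates 1 and 2 by TPM and 43.9% by TMM-scaled CPM, so a direction between the sets holds only for the scale it is given on.

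A pair of short RNAs and the calmodulin genes Calm2 and Calm3 are shown by sequence. The first pair heads the nuclear list by TPM, and the calmodulin pair is an example of abundant co-expressed paralogs. The short RNAs are printed 5′ to 3′ from GENCODE M21 (GRCm38), in lower case throughout. Bc1 lies at chr7:144914470-144914637 on the plus strand. Gm23935 lies at chr16:11144125-11144181 on the plus strand, within Zc3h7a on the opposite strand.
Bc1: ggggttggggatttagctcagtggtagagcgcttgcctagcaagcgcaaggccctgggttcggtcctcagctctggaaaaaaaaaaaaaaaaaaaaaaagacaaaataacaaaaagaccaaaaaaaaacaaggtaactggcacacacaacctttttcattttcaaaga
Gm23935: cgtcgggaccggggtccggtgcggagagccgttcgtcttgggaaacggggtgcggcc

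Bc1 is a brain cytoplasmic RNA transcribed by RNA polymerase III and found in neuronal dendrites. Its 168 bases include the long run of a that is visible in the middle of the sequence. Gm23935 is annotated as a miRNA of 57 bases, has 73.7% G and C, and had no entry in the RefSeq miRNA table. Gm24270 and Gm24245 carry the identical sequence, so reads lying wholly within the 57 bases cannot be told apart by sequence. Bases beside the gene models were not compared, and how shared reads were assigned is not given.

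The calmodulin stretch is the first 150 of 450 coding bases of each gene, 5′ to 3′, from GENCODE M21. Capitals mark the bases at positions where the pair differs. Calm2 lies at chr17:87433412-87446935 and Calm3 at chr7:16915379-16924114, both on the minus strand of GRCm38.
Calm2: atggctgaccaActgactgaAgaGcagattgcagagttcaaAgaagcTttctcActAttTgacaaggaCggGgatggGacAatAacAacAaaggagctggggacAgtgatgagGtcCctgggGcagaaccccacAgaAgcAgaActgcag
Calm3: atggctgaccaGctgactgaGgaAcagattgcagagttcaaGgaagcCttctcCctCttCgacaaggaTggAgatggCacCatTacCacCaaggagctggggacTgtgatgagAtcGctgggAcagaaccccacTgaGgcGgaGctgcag

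Calm2 and Calm3 shared 372 of the 450 coding bases (82.7%). Of the 78 differences, 74 fell on the third base of a codon.

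RNA was spread over many genes with a steep top. Of 55536 genes in the table, 28763 had a count in any library and 18264 in all 5. Among protein-coding genes, mitochondrial ones included, 13242 reached 1 TPM, 8443 reached 10 TPM, 1468 reached 100 TPM and 71 reached 1000 TPM. The 100 genes with the most counts held 22.5% ± 3.74 (SD, n = 5) of all counts, and 817 genes held 50% of them. Without mitochondrially encoded genes the top 100 held 16.4% of counts. On the length-scaled measure the top 100 held 39.5% of TPM, and 24.6% without mitochondrially encoded genes.

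Mitochondrially encoded transcripts were the most abundant class. The mitochondrial genome encodes core subunits of the respiratory chain and the ribosomal and transfer RNAs to make them. Its 37 genes held 8.41% ± 2.91 (SD, n = 5) of counts, of which 83.7% came from the 13 mRNAs and 15.99% from the 2 ribosomal RNAs. mt-Co1, the catalytic subunit of cytochrome c oxidase, had 37476, 39824, 62059, 61895 and 69881 TPM in replicates 1 to 5, with the lowest values in replicates 1 and 2 and no overlap between the sets. mt-Nd1, a subunit of complex I, averaged 25382 TPM in replicates 1 and 2 and 38549 TPM in replicates 3 to 5. mt-Cytb, of complex III, averaged 25040 and 37663 TPM, and neither gene overlapped between the sets.

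Other mitochondrial mRNAs were listed far lower. mt-Co2, the second cytochrome c oxidase subunit, averaged 410 ± 204 TPM (SD, n = 5). mt-Co3 had 159, 113, 111, 1245 and 1111 TPM, so replicates 4 and 5 were high and the other 3 low. mt-Atp6, an ATP synthase subunit, had 175, 1322, 592, 415 and 718 TPM. How reads that map to several places were counted is not given in the sources used here, and its part in these low values was not tested.

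The highest nuclear gene by TPM was Gm23935, and its level depended on the library. It had 4362, 6236, 51360, 54569 and 61352 TPM in replicates 1 to 5. The short gene length magnifies TPM, since the same libraries held 1364, 1907, 19989, 19773 and 22534 counts. Replicates 3 to 5 averaged 10.5 times the TPM of replicates 1 and 2. The identical Gm24270 had 3 to 111 counts per library, and Gm24245 had 0 in all 5. Bc1 followed with 8337, 6379, 5973, 7423 and 5330 TPM, with the sets overlapping.

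The most abundant protein-coding gene by TPM was Nrgn (neurogranin), a postsynaptic protein that binds calmodulin. It had 4990, 4982, 4336, 4302 and 4161 TPM. Rplp1, a stalk protein of the ribosome, averaged 4011 ± 764 TPM (SD, n = 5), and Selenow, a small selenoprotein, averaged 3999 ± 405 TPM. Cpe, the carboxypeptidase that processes prohormones and neuropeptides, had 3702, 4085, 4125, 4114 and 3841 TPM, which is a narrow range with both sets mixed. Cst3, a secreted inhibitor of cysteine proteases, averaged 3871 TPM, and Eef1a1, which carries aminoacyl-tRNA to the ribosome, averaged 3860 TPM. Apoe, the main lipid carrier of the brain, averaged 2985 ± 265 TPM. Hpca (hippocalcin), a neuronal calcium sensor, averaged 2528 TPM, and Ncdn (neurochondrin), a neuronal protein that binds CaMKII, averaged 2811 TPM.

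**Figure D1:**
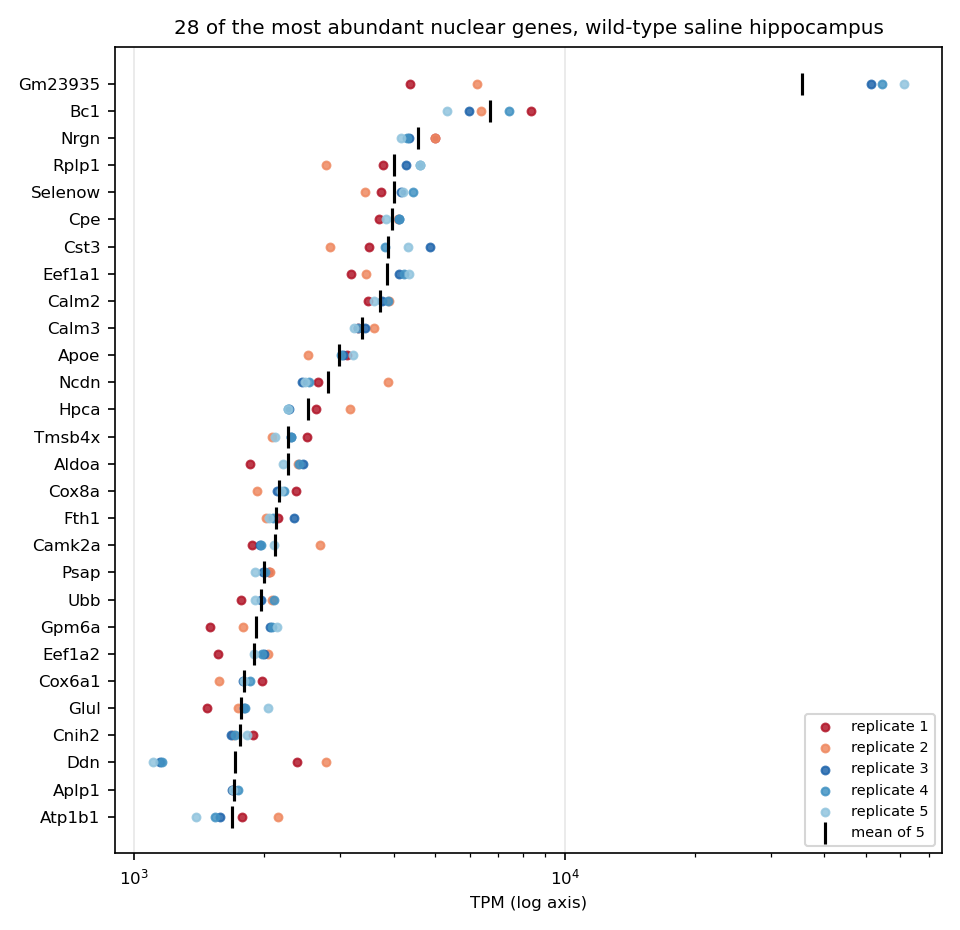
TPM on a log axis for 28 of the 30 most abundant nuclear genes, with 1 point per library coloured by replicate and a black bar at the mean of 5. Gm23935 spans 4362 to 61352 TPM and separates replicates 1 and 2 from the rest, while genes such as Cpe and Psap lie within a narrow range.

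By read number the order changed, because long transcripts collect more reads. Camk2a, the alpha subunit of the synaptic kinase CaMKII, had the most counts of any nuclear gene, at 3444, 4999, 5315, 5550 and 6250 CPM. Cpe averaged 3394 CPM. Slc1a2, the main astrocyte glutamate transporter, averaged 2574 CPM and 605 TPM, with 13133 exonic bases. Slc17a7, which loads glutamate into vesicles, averaged 2426 CPM and 1354 TPM.

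Housekeeping classes were measured as sums over their genes. The 83 cytosolic ribosomal protein genes held 3.76% ± 0.607 (SD, n = 5) of TPM, and 11 of them were among the 100 most abundant nuclear protein-coding genes. The 86 nuclear genes of oxidative phosphorylation held 2.36% ± 0.210 of TPM, led by Cox8a at 2170 TPM and Cox6a1 at 1800 TPM, both subunits of cytochrome c oxidase. The 16 glycolysis genes held 1.01% ± 0.0877, led by Aldoa at 2268 TPM and Gapdh at 1126 TPM.

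Abundant genes were short and compact. The 100 most abundant nuclear protein-coding genes had a median longest transcript of 2027 bases, a median span of 8.23 kb and a median of 6 exons. Over all 15016 nuclear protein-coding genes ranked, the medians were 3427 bases, 25.0 kb and 9 exons. TPM divides by length, so length is part of the measure itself. TATAAA on the transcribed strand, 50 to 11 bases before the start in the RefSeq promoter windows (GRCm38.p6), was found in 3 of the 72 top-100 genes that had a window (4.17%), namely Ckb, Ndrg4 and Tubb2a. Of the 11702 ranked genes that had a window, 213 held it (1.82%). Of all promoters in that table, including those of genes not ranked here, 2.40% held it.

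Protein-coding genes, nuclear and mitochondrial together, took 97.3% ± 0.418 (SD, n = 5) of counts. The 13 mitochondrial mRNAs within this share took 7.02%, with 4.46% in replicates 1 and 2 and 8.73% in replicates 3 to 5. Long non-coding RNAs took 0.985%, with 1.35% in replicates 1 and 2 and 0.744% in replicates 3 to 5. Small RNAs took 0.0926%, and their sum went the other way, with 0.0390% and 0.128%. That direction came from the miRNA class, which holds Gm23935, at 0.0129% and 0.113%. Small nucleolar (0.00398% and 0.00136%), small nuclear (0.00178% and 0.000719%) and ribosomal RNA genes (0.0194% and 0.0131%) were higher in replicates 1 and 2. Processed pseudogenes took 0.0724%. After Bc1, the highest long non-coding RNAs by TPM were 2900097C17Rik at 964, Meg3 at 217, Peg13 at 203 and 1700020I14Rik at 180. Meg3, an imprinted RNA, had 800, 190, 45.5, 32.0 and 18.7 TPM, so replicate 1 was far above the others and both replicates of the first set lay above the second. Malat1, a nuclear RNA, averaged 91.98 TPM with 161 TPM in replicate 1 and 58.9 TPM in replicate 5. The highest processed pseudogene by TPM was Gm14303 at 488 TPM, with 171 bases and 27.3 CPM. Gstp-ps, of 631 bases, had 140 TPM and 28.7 CPM. Whether reads of near-identical genes add to Gm14303 was not tested.

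The marker lists placed neurons and astrocytes at the top. The 9 excitatory neuron markers summed to 9699 ± 562 TPM (SD, n = 5), and the 18 astrocyte markers to 9387 ± 410 TPM. The 15 pan-neuronal markers summed to 5949 TPM, the 15 oligodendrocyte markers to 2709 TPM, the 19 interneuron markers to 2573 TPM and the 19 microglia markers to 1078 TPM. Sums depend on which genes are listed and how many, so the order of lists is not an order of cell numbers. Mixed lists share Cck, Calb2 and Dcn, which each stand in more than 1 list.

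Excitatory neurons were marked by Nrgn, Camk2a and Slc17a7, given above, and by Cck, a neuropeptide gene also found in interneurons, at 1033 TPM. The transcription factors Neurod6 and Neurod2 had 307 and 253 TPM. The pan-neuronal list was led by Snap25, a SNARE protein of vesicle fusion, with 977, 1315, 754, 770 and 729 TPM, higher in replicates 1 and 2 on the TPM scale. Nefh, the heavy neurofilament, closed it at 32.9 TPM.

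Markers of each hippocampal field were present, at levels of the whole tissue. At least 10 TPM was reached by 8 of 8 CA1, 6 of 7 CA2, 6 of 8 CA3 and 8 of 10 dentate granule markers. Only 6 of the 7 CA2 markers reached 1 TPM. Of the CA1 markers, Mpped1 had 169 TPM, Ccn3 143 TPM, Wfs1, an endoplasmic reticulum membrane protein, 139 TPM and Fibcd1 126 TPM. Of the CA2 markers, Necab2, a calcium-binding protein, had 128 TPM, and Rgs14, a regulator of G protein signalling, had 75.5 TPM. Of the CA3 markers, Bok had 167 TPM, Cpne4 71.0 TPM and Grik4, a kainate receptor subunit, 33.5 TPM. The dentate granule list was led by C1ql2, a synaptic organizer of mossy fibres, at 299 TPM, and Calb1 (calbindin) at 95.2 TPM, while Prox1, the granule cell identity factor, had 50.6 TPM. The proliferation genes Mki67 and Top2a had 0.685 and 0.320 TPM, and Dcx, of immature neurons, had 4.10 TPM.

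Interneuron genes covered a wide range of levels. Sst (somatostatin) had 1052, 806, 440, 448 and 342 TPM, the highest of the list after Cck and higher in replicates 1 and 2 on the TPM scale. Npy, a neuropeptide, averaged 178 TPM. Pvalb (parvalbumin) averaged 103 TPM. Vip, a peptide of disinhibitory interneurons, had 9.93 TPM.

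Astrocyte genes were the most abundant glial group. Glul, which makes glutamine from glutamate, had 1472, 1744, 1800, 1805 and 2042 TPM, and Aldoc, a glycolytic aldolase, averaged 989 TPM. Clu, a secreted chaperone, averaged 971 TPM. Gfap, the astrocyte intermediate filament, had 344, 361, 264, 258 and 292 TPM. The lowest of the 18 were Aldh1l1 at 34.6 TPM and the transcription factor Sox9 at 33.6 TPM, so every member exceeded 10 TPM.

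By summed TPM, myelin genes of the oligodendrocyte list varied most among the large glial lists, with an SD of 37.1% of the mean. On TMM-scaled CPM the list's median log2 ratio of replicates 1 and 2 over 3 to 5 was -0.03. It was -0.55 for the astrocyte list and -0.67 for the microglia list. Mbp, a structural protein of myelin, had 946, 1021, 460, 425 and 401 TPM. It was higher in replicates 1 and 2 without overlap on the TPM scale. The whole list summed to 3332 and 4172 TPM in the first set and 1883 to 2201 TPM in the second. Precursor markers were led by Olig1, a factor of the lineage, at 180 TPM, with Pdgfra at 14.5 TPM.

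Microglia were marked by C1qa, the first component of complement, with 155, 139, 183, 174 and 213 TPM. Ctss, a lysosomal protease, averaged 157 TPM. The receptors P2ry12 and Cx3cr1 averaged 52.6 and 41.4 TPM, and Tmem119 averaged 36.8 TPM. Markers of border macrophages summed to 11.7 TPM, with Mrc1 at 1.11 TPM.

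The 19 endothelial markers summed to 632 TPM and the 9 pericyte markers to 209 TPM. Cldn5, a tight junction protein of the blood-brain barrier, had 168, 111, 72.1, 87.1 and 89.7 TPM, and Itm2a averaged 106 TPM. Vtn, a pericyte product in brain, had 130, 82.8, 84.7, 90.1 and 105 TPM. Acta2, the smooth muscle actin, averaged 14.1 TPM. Of tissues that a dissection may include, Ttr, the choroid plexus carrier of thyroid hormone, had 34.1, 114, 23.96, 94.7 and 35.9 TPM, so replicates 2 and 4 were high. The thalamus list summed to 120 to 145 TPM and the striatum list to 134 to 174 TPM. Hbb-bs, a beta-globin of red blood cells, had 2.37, 33.5, 4.005, 23.1 and 132 TPM, with replicate 5 the highest. Lymphocyte and neutrophil lists summed to 0.762 and 3.35 TPM, and Cd3d and Elane had no count.

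**Figure D2:**
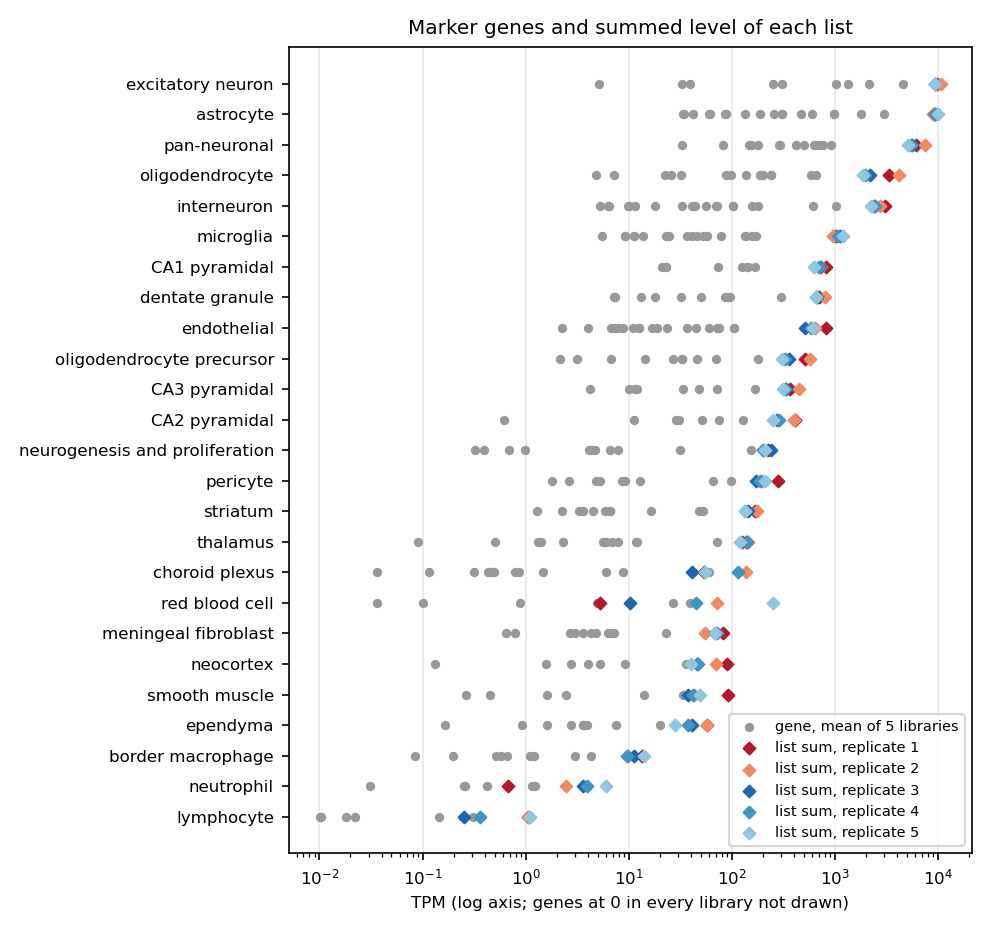
TPM on a log axis for 25 marker lists, with grey points for the mean of each gene and diamonds for the list sum in each library. Excitatory neuron and astrocyte lists lie near 9699 and 9387 TPM, and the lymphocyte list lies at 0.762 TPM.

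Paralog use was measured as each member's share of its family's TPM, a value that does not depend on how libraries are scaled to each other. In 56 families with 238 members, the leading member was the same in all 5 libraries in 50 families. The leader held at least 90% in 6 families and under 50% in 16, with a median of 64.4%.

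Of the 6 families whose leader held at least 90%, 4 encode proteins of synaptic vesicles and their fusion. Slc17a7 held 98.9%, 99.2%, 99.5%, 99.6% and 99.4% of vesicular glutamate transporter TPM, and Slc17a6, which is typical of thalamus and brainstem, held 0.521%. Snap25 held 99.2% ± 0.363 (SD, n = 5) against Snap23. Syt1, the fast calcium sensor of release, held 97.5%, and Vamp2, the vesicle SNARE, held 94.5%. Hk1 held 94.6% of the hexokinases and Hspa8 90.1% of its heat shock group.

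In other presynaptic families the leader held less. Cplx2 held 57.2% and Cplx1 42.5% of the complexins, which clamp and promote fusion. Syn1 held 64.3% ± 0.339 and Syn2 35.6% of the synapsins, which tether vesicles, with the leader's share spanning 63.8% to 64.6% over all 5 libraries. Rab3a held 87.2% of the Rab3 group.

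Glutamate receptor families differed in how far 1 member led. Gria1 held 67.6%, 69.7%, 76.3%, 77.0% and 77.6% of AMPA receptor TPM, and Gria2, the subunit that limits calcium entry, held 20.5%, 19.5%, 14.3%, 13.7% and 13.9%. Replicates 1 and 2 thus had the lower Gria1 and the higher Gria2 share. Grin1, the obligatory NMDA receptor subunit, held 48.7% of its family, with Grin2b at 19.3%, Grin2a at 13.5% and Grin2c at 12.5%. Grin2b was uneven, at 11.6% in replicate 1 and 29.2% in replicate 2. Grik5 held 73.0% of the kainate receptors. Among metabotropic receptors Grm5 held 31.5% and Grm2 26.7%, and Grm5 led in 4 of 5 libraries.

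Among GABA-A receptor alpha subunits, Gabra5, typical of hippocampal extrasynaptic receptors, held 45.0%, 48.4%, 50.3%, 50.2% and 52.0%. Gabra4 held 12.5%. Gabra2 was low, at 10.4%, 8.06%, 4.51%, 4.27% and 4.33%, with replicates 1 and 2 above the rest. Gad1 held 65.0% of the 2 enzymes that make GABA.

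Ion channel families ranged from concentrated to even. Hcn2 held 85.9% of the HCN channels, which carry the hyperpolarization-activated current. Scn8a and Scn2a held 39.1% and 39.6% of the sodium channel group, and Scn8a, ranked first by mean TPM, led in 2 of 5 libraries. Cacna1h held 19.4% and Cacna1e 18.3% of the calcium channel pores. Without replicate 1 Cacna1e led at 19.2%, and Cacna1h held 18.2%. Kcna1 held 34.9% of the Kv1 channels and ranged from 18.2% to 41.6%.

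Calmodulin, the calcium sensor that activates CaMKII, was made from several genes in steady proportions. Calm2 held 40.7%, 39.5%, 40.7%, 42.2% and 40.9% of the family, and Calm3 averaged 36.9%. Calm2 led in all 5 libraries. The family summed to 9140 ± 501 TPM (SD, n = 5).

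Aldoa held 69.6% and Aldoc 30.4% of the aldolases, Eno2, the neuronal enolase, held 54.7%, and Ldhb held 68.4% of the lactate dehydrogenases. Tuba1a held 53.0% and Tuba1b 28.8% of alpha-tubulin, but their coding sequences are 98.3% identical, so this split is uncertain. Coding sequences of up to 3 leading members per family, 162 genes, were searched, and 25 had another gene at 95% identity or more over at least 30% of their length. In 8 of these the other genes held 5% or more of the member's counts, among them the tubulin pairs Tuba1a and Tuba1b, the globins, and Hspa1a with Hspa1b. Apoe held 73.2% and Clu 23.8% of a listed group whose members were not tested for shared ancestry. Slc2a1, the vessel and glial glucose transporter, held 48.8% and the neuronal Slc2a3 46.5%, and the leader changed between libraries.

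The gene length used for TPM changed some leaders. With the median transcript length in place of merged exons, Calm3 led the calmodulins at 57.7%, Grin2b led the NMDA receptors at 75.5% and Ldha led the lactate dehydrogenases at 52.0%. Gabra5 no longer led on that length and held 16.9%. On that length Syn2, Cplx1, Tuba4a, Kcna2 and Cacna1i also took the lead of their families. With the longest transcript as well as the median, Slc2a3 led the glucose transporters and Eno1 the enolases. With the longest transcript Cacna1e led the calcium channel pores at 23.6%, and Cacna1h held 17.6%. Slc17a7, Snap25, Syt1, Vamp2, Hk1 and Hspa8 led under every length tried.

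**Figure D3:**
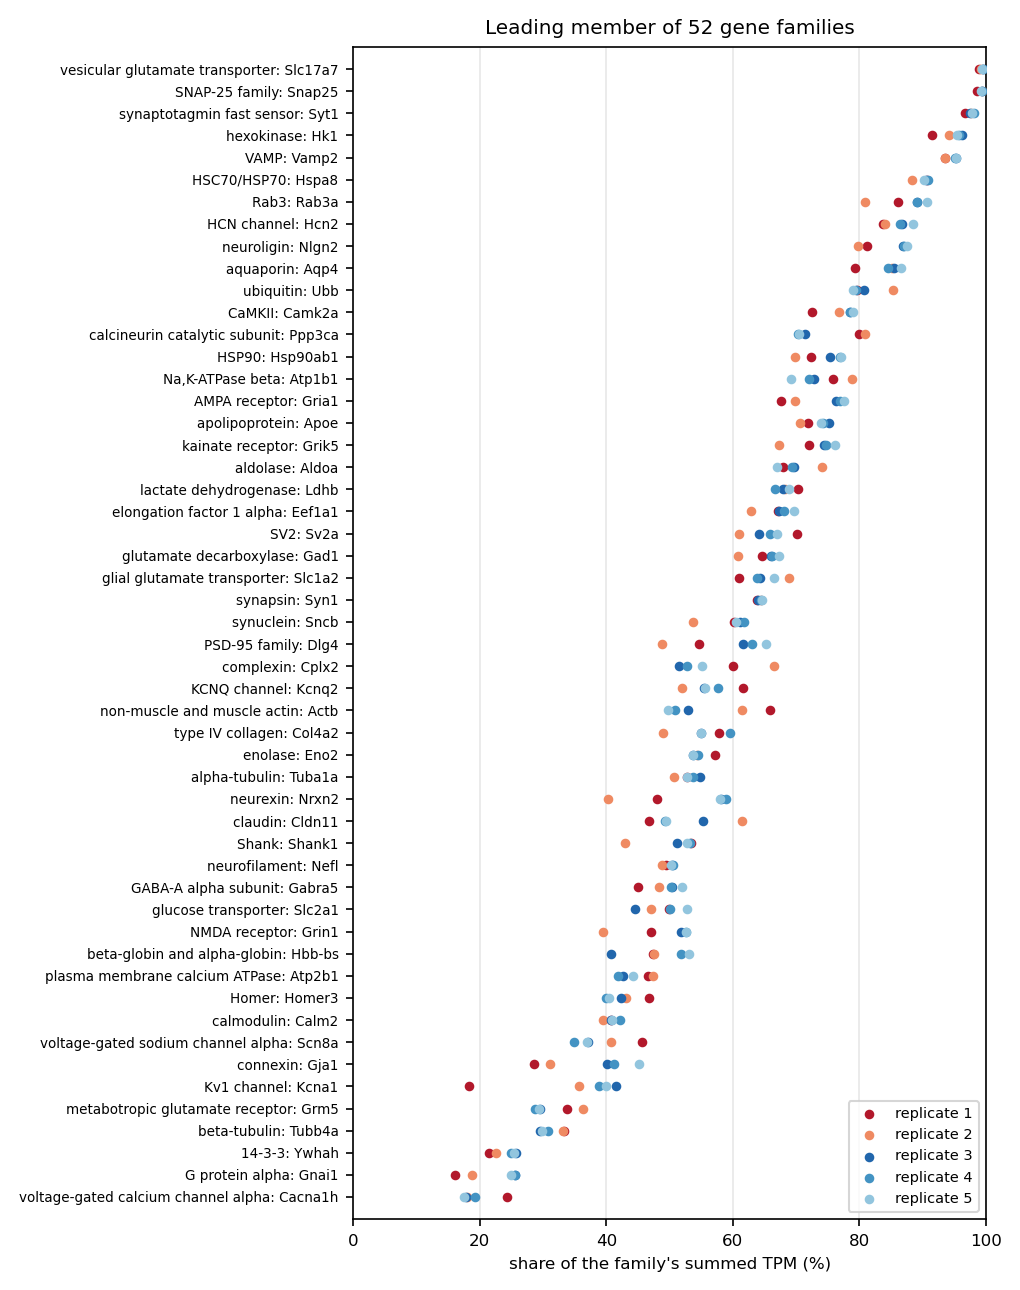
Share of the leading member in its family's summed TPM for 52 of the 56 families, with 1 point per library coloured by replicate. Slc17a7 lies near 99.3% in every library, while Cacna1h, first by mean TPM in its family, averages 19.4%.

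Spread between libraries was measured as the coefficient of variation (CV) of CPM over 12567 genes with a mean count of at least 50. The median CV was 18.7%, where counting error alone gives 4.30%. Among replicates 3 to 5 the median was 6.02%. edgeR's common biological CV was 28.2% over all 5 libraries, 22.3% for replicates 1 and 2 and 6.04% for replicates 3 to 5. Over all 5 libraries the median CV fell from 25.3% at a mean count of 50 to 100 to 16.7% at 1000 to 3000, and was 22.0% at 10000 or more. Within replicates 3 to 5 it fell in every step, from 15.6% to 3.06%.

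**Figure D4:**
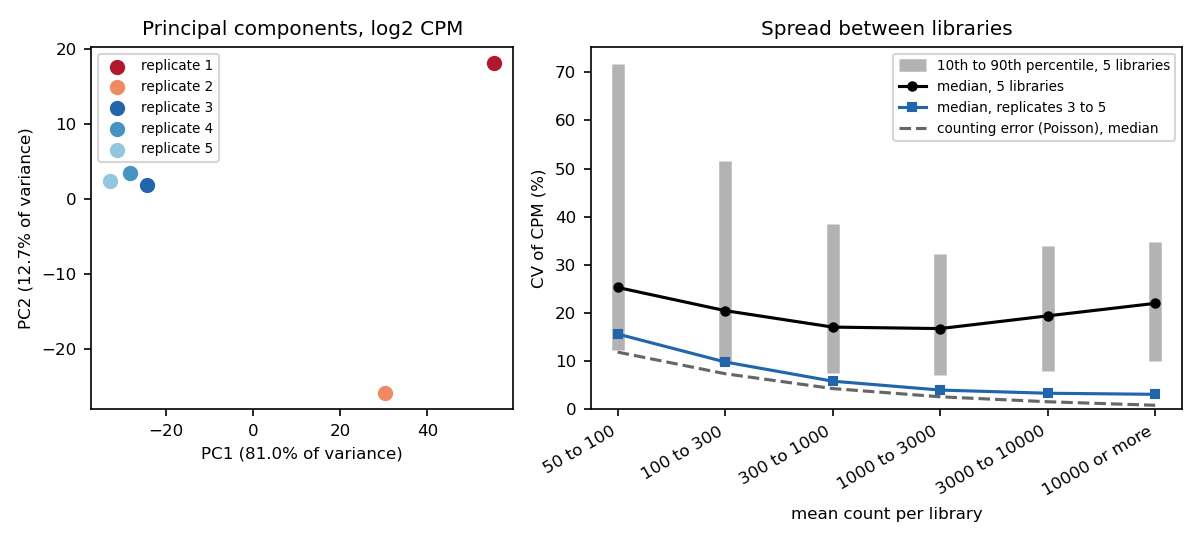
Left, libraries on the first 2 principal components of log2 CPM. Right, CV of CPM in percent against mean count, with the median over 5 libraries (18.7% over all bins), the median over replicates 3 to 5 (6.02%) and the counting error.

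The genes with the highest CV were mostly high in replicate 1. Snhg11, a host of small nucleolar RNAs, had 1733, 399, 100.8, 77.0 and 55.3 CPM. Meg3 had 3561, 855, 300, 219 and 134 CPM, and Neat1, the scaffold RNA of paraspeckles, had 123, 66.4, 5.86, 6.53 and 4.19 CPM. Rgs11, Rreb1, Firre, Col6a1, C78859 and Trank1 also peaked in replicate 1. Hbb-bs did not follow this order, with 0.449, 6.397, 1.12, 6.71 and 40.3 CPM. The lowest CVs belonged to Snph, a protein that anchors axonal mitochondria, at 408, 398, 407, 401 and 406 CPM (CV 1.18%), and to Ube2q1, Cd2bp2, Camkv, Plpp6, Dnajb12, Bap1, Sirpa, Wwp2 and B3galt2. On the TPM scale Snph had a CV of 23.9%, so its steadiness holds for TMM-scaled CPM.

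**Figure D5:**
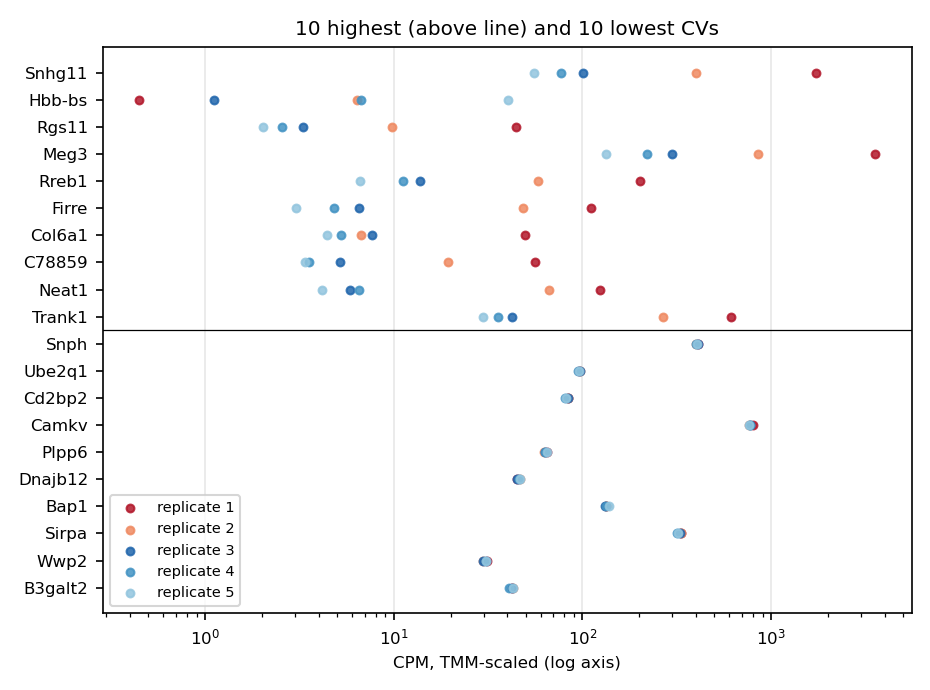
CPM on a log axis for the 10 genes with the highest and the 10 with the lowest CV, with 1 point per library. Snhg11 runs from 55.3 to 1733 CPM and Snph from 398 to 408 CPM.

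Values of replicates 1 and 2 did not overlap those of replicates 3 to 5 in 67.8% of the 12567 genes. Of these genes 3736 were higher in replicates 1 and 2 and 4783 in replicates 3 to 5. The direction depended on scaling, since plain library totals gave 6015 and 2413, and TPM gave 9103 and 532. The median log2 ratio of the sets was -0.07 with TMM, 0.21 with plain totals and 0.54 with TPM. edgeR's quasi-likelihood test called 7186 of 16419 genes (43.8%) at an adjusted p under 0.05, 3867 (23.6%) higher in replicates 1 and 2 and 3319 (20.2%) higher in replicates 3 to 5. With plain totals the split was 6034 and 1428. The sets were separated by their own values, so these counts describe the libraries and test no labelled group. Without replicate 1 the count was 4659.

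Among members, 84 of the 100 most abundant nuclear protein-coding genes were called, 81 of them higher in replicates 3 to 5 (20.2% of all genes were) and 3 higher in replicates 1 and 2 (23.6%), with a median log2 difference of -0.65, against 0.02 over all genes tested. Of the microglia list, 15 of 19 genes were higher in replicates 3 to 5, and of the astrocyte list 12 of 18 were. The oligodendrocyte list had 3 genes higher in replicates 1 and 2 and 1 higher in replicates 3 to 5, of 15 tested. These counts hold for TMM. Counted as genes whose sets do not overlap (67.8% of all genes on TMM), the 100 most abundant genes had 4 higher in replicates 1 and 2 and 91 in replicates 3 to 5 on TMM, 9 and 76 with plain totals, and 24 and 34 by TPM. Counted the same way by TPM, the microglia list had 4 and 5, the astrocyte list 5 and 6, and the oligodendrocyte list 12 and 0. Of all 12567 genes, 9103 were higher in replicates 1 and 2 and 532 in replicates 3 to 5 by TPM. The oligodendrocyte count thus went the way of most genes on that scale. Genes above in replicates 1 and 2 by TMM had a median longest transcript of 4318 bases, and those above in replicates 3 to 5 had 2953. The part of the mitochondrial share and of transcript length in these differences was not tested.

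The baseline was then set against the other groups. Fkbp5 checks the labels of the knockout. It had 57.4, 72.3, 59.8, 56.9 and 68.9 CPM in wild-type saline, and 27.03 to 36.0 CPM in knockout saline, with no overlap. The log2 difference was -1.04 ± 0.112 (SE, edgeR quasi-likelihood test, adjusted p = 2.79e-05). In that comparison 28 of 16419 genes were called (0.171%), 22 higher and 6 lower in the knockout, and 59 with the replicate number as a block. None of the 100 most abundant nuclear protein-coding genes and none of the 256 marker genes tested was among the 28. Of 227 family members tested, 1 was called.

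That member was Gabra2, which had 98.7, 91.4, 58.1, 56.6 and 57.9 CPM in wild-type saline, with replicates 1 and 2 above the rest. Gabra2 had 263 CPM on average in knockout saline and 226 to 307 CPM over its libraries. The groups did not overlap, and Gabra2 was 1.85 ± 0.188 higher on the log2 scale (SE, edgeR, adjusted p = 1.58e-05). With the replicate block, the member genes Aqp4, C1ql2 and Scnn1a passed as well, with log2 differences of 0.36, -0.99 and -0.77 and adjusted p of 0.0313, 0.0459 and 0.00746 (edgeR).

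Wild-type LPS differed from wild-type saline in 0 of 16419 genes (0%) by edgeR at day 7. Without adjustment 340 of the 16419 genes had p under 0.05 by edgeR, and 794 with the replicate block. Both are below the share of 0.05 that chance alone would give. The fit without the block counts the difference between the library sets as spread, so 0 calls do not show that LPS had no effect. With the replicate number as a block 3 genes passed, and DESeq2 gave 2. The median log2 difference was -0.05 for the 100 most abundant genes, 0.13 for the microglia list and 0.06 for the astrocyte list, against -0.02 over all genes tested.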

How the data were processed

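Hippocampal RNA was sequenced in 20 libraries, 5 in each of 4 groups. The deposited values are raw read counts per gene for 55536 genes, which the authors had not normalized. Per the submitters' processing notes, reads were trimmed with Trimmomatic 0.38, inspected with FastQC and MultiQC and counted with featureCounts 1.6.0 on mm10. The aligner, annotation release, strand setting and treatment of reads mapping to several places are not given in the sources used here. Unstranded counting cannot separate overlapping antisense genes. All 55536 identifiers matched GENCODE M21, which gave symbols, positions, biotypes and lengths.

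CPM used TMM factors over all 20 libraries. TPM divided counts by the merged exon length. Tests used edgeR 4.0.16 under R 4.3.3 (filterByExpr, 16419 genes, quasi-likelihood F test, Benjamini-Hochberg adjustment, all groups in 1 fit, the library sets of wild-type saline apart in their own comparison), checked on simulated counts. DESeq2 1.42.0 was an alternative. Coding sequences were aligned with BLAST+ 2.17.0.

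Named genes were the 30 highest by TPM and 10 by CPM (mitochondrial and nuclear apart), the 5 highest of each non-coding class, the 4 highest and 2 lowest of each marker list, all family members, the 10 highest and lowest CVs at a mean of at least 10 CPM, leading and member genes past the test threshold, and Fkbp5. Some genes that this rule selects are not reported here or drawn. A few further members of the lists are named that were chosen after their values were seen. The members and lists were chosen with earlier results of these data known.

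After removal of group means, libraries with the same replicate number in wild-type saline and wild-type LPS correlated at 0.704 to 0.909, and in wild-type and knockout saline at 0.515 to 0.744. All exceed 0.1, so the numbers were treated as pairing. Libraries of 1 number also share the library set, so these values cannot tell pairs from sets. A wild-type saline library correlated best with its own number in 3 of 5 cases for wild-type LPS and 1 of 5 for knockout saline. The block takes up the set difference whether or not equal numbers are pairs. The alternatives were other size factors, filters, length definitions, pooled fits, the block and leaving out each library. Counting limits cover counting error only.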

Additional observations from a re-analysis of the deposited data

Results flagged for a closer look

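In 204 named genes, the highest or lowest of the 5 wild-type saline libraries was set against the other 4 by Dixon's ratio, the gap to the nearest library divided by the whole range of CPM. The ratio passed the critical value of 0.71 in 27 genes. Chance flags about 1 in 20 groups, but 20 of the genes had been named for a high or low CV, so the number is not comparable with that rate. Without those genes, 19 of 184 passed. No cause was tested.

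Replicate 1 was the highest library for Col6a1 (ratio 0.929), Mir5125 (0.854), Rgs11 (0.819), Snhg11 (0.795), Meg3 (0.790), Des (0.757), Cux2 (0.740), Rreb1 (0.733) and Fezf2 (0.728). Col6a1, a collagen VI chain, had 49.6 CPM there against 4.43 to 7.62 CPM in the others. Replicate 1 was the lowest for 1700020I14Rik (0.843), Nectin3 (0.817), Grik4 (0.788) and Sox9 (0.715), and Sox9 had 26.98 CPM there against 44.5 to 51.6 CPM.

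Replicate 2 was the highest for Pdzd2 (0.793) and Sox10 (0.724), and the lowest for Mpped1 (0.830) and Ms4a7 (0.800), with 1 count of Ms4a7 there. Replicate 3 was the highest for Rarres2 (0.812) and Ly6g (1), but Ly6g had 1 count there and 0 elsewhere, which fixes its ratio. Replicate 4 was the lowest for B3galt2 (0.715).

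Replicate 5 was the highest for the globins Hbb-bs (0.843), Hba-a1 (0.820), Hba-a2 (0.810) and Hbb-bt (0.770), and Hba-a1 had 28.2 CPM there against 0.314 to 5.33 CPM. It was also the highest for Mrc1 (0.782), Bap1 (0.780) and Ms4a1 (1), of which Ms4a1 had 2 counts there and 0 elsewhere, which fixes its ratio. Ly6g and Ms4a1 rest on too few counts to give a level at this depth.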

How the results depend on the processing

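The split of replicates 1 and 2 from 3 to 5 called 4659 to 7019 genes when each library was left out, with 4659 without replicate 1. The LPS comparison called 0 genes by edgeR, 2 by DESeq2 and 3 with the replicate block, which used the shared numbers as pairs. The knockout comparison called 28 genes, 59 with the replicate block, 48 by DESeq2, 18 with only the groups compared in the fit and 19 to 29 with each library left out. Among the members named here, the block changed the calls of Aqp4, C1ql2 and Scnn1a and no other.

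The 22.5% of counts in the top 100 genes was 18.7% in replicates 1 and 2 and 16.4% without mitochondrial genes, also with genes under 200 bases removed. The 39.5% of TPM was 31.1% in replicates 1 and 2, 26.6% with median transcript length, 24.6% without mitochondrial genes and 20.5% with short genes removed too. The mitochondrial share was 5.30% in replicates 1 and 2. The median CV of 18.7% was 14.7% to 20.03% with each library left out, 13.4% in replicates 1 and 2, 6.02% in replicates 3 to 5, 21.4% with a mean count of at least 10 and 25.3% on TPM. The common biological CV of 28.2% was 21.3% to 30.04%, 22.3% and 6.04% in the same order for left-out libraries and the sets. Removing short genes, TPM for CV, plain library totals and the other scalings of the 100 most abundant genes were chosen after seeing the data. The longest transcript moved 32 of 56 leading family shares by more than 1 SD and the median length 46. Genes at or under 3 counts cannot be told from absent ones at this depth.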
